A study of Xenopus laevis with 12 samples.

Results

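Untreated Xenopus laevis embryos raised in large cohorts of 300 were compared with untreated embryos raised in small cohorts of 100. The comparison used 6 of the 12 RNA libraries of the series, 3 from large and 3 from small control cohorts, and was chosen by cohort size and treatment alone. Each library was made from 15 pooled wild-type tadpoles at stage 35, sequenced as total RNA after removal of ribosomal RNA. All embryos were reared in 0.1X MMR (a dilute saline), with medium and dish scaled to the number of animals. The paper's methods state that embryos of separate mothers were mixed before they were divided, while its results describe each experiment as from the same clutch. The control cohorts received no drug. The other 6 libraries came from cohorts of 300 and 100 that received 90 µM thioridazine, an antipsychotic that blocks dopamine receptors, and their own cohort comparison is set beside that of the controls. They also share the model fit of the control comparison, and so enter its filter, its surrogate variables and its estimate of spread. The labels do not say whether the 3 libraries of a group came from separate dishes, so p-values measure the spread between pools, which may be technical. The question was whether cohort size leaves a mark on the embryo's transcripts. Dish size and medium volume changed together with the number of neighbours, so their effects cannot be told apart.

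The frog at this stage is close to hatching or newly hatched, with a beating heart, circulating larval blood and a liver bud that has begun to secrete plasma proteins. Replication-type histones package newly made DNA. Their genes sit in repeated clusters without introns, and their mRNAs end in a stem-loop rather than a poly(A) tail, so total RNA libraries record them while poly(A)-selected ones mostly do not. The genome of X. laevis is doubled, and the suffixes .L and .S mark the copies of a gene (homeologs) on the long and the short subgenome.

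The large control libraries held 4887343 to 7417714 expected counts and the small control libraries 6709803 to 7265622. Transcript levels are given as CPM (expected counts scaled to library size with TMM factors), and changes as log2 fold changes, large minus small, ± standard error from limma with 2 surrogate variables (n = 3 pooled libraries per group). A gene was called at a Benjamini-Hochberg adjusted p under 0.05 over the 25553 genes that passed the filter on low counts. The libraries as a whole separated weakly by cohort size. Variation between the groups relative to that within them, as a pseudo-F, was 1.248, reached by 2 of the 20 possible arrangements (exact permutation p = 0.1, one-sided, the smallest this design allows), and with the 500 most variable genes it was 1.054 (exact permutation p = 0.4). Ribosomal RNA genes took 0.234% ± 0.0765 of the counts in large and 0.105% ± 0.0108 in small control cohorts, without overlap (SD, n = 3 each, exact permutation p = 0.1, adjusted p = 0.3 over 6 measures of depth and composition, two-sided).

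Of the genes tested, 75 were called (0.294%), 64 of them higher (0.25%) and 11 lower (0.043%) in large than in small control cohorts. The calls centred on a few groups: histones, blood-plasma proteins of the liver, larval globins, ribosomal proteins and a small set of mucus and ectoderm genes. Values of the groups did not overlap for 63 of the 64 genes called higher and for 9 of the 11 called lower, against 8.45% (higher) and 7.6% (lower) of all genes tested. Called genes were picked by a test on these same libraries, so their separation, here and below, is no independent evidence. The median change of all genes was -0.00 with a median standard error of 0.16, and 49% of genes lay above 0. At an unadjusted p under 0.05 in limma, 5.54% of all genes tested were higher and 3.87% lower. Counts for gene lists below are to be read beside these shares. The calls were sensitive to single libraries. By gene group, the number called higher without a control library, with or without surrogate variables, ranged from 0 to 14 for replication-type histones, 0 to 15 for plasma proteins, 0 to 5 for coagulation factors, 0 to 4 for haemoglobin and 0 to 10 for ribosomal proteins, while each group's median stayed above 0. Leaving out large replicate 1, 2 or 3 left 17, 21 or 5 calls, and leaving out small replicate 1, 2 or 3 left 98, 23 or 58. Without surrogate variables limma called 30 genes higher (0.117%) and 2 lower (0.00783%), 31 of the 32 shared with the 75. edgeR's quasi-likelihood test called 7 higher (0.0274%) and 0 lower (0%), while DESeq2 called 100 higher (0.391%) and 15 lower (0.0587%). Replication-type histones called higher numbered 6 in limma without surrogate variables, 3 in edgeR and 19 in DESeq2, against 16 in the main fit. In the same order, plasma proteins numbered 5, 1 and 9, against 6, and coagulation factors 2, 0 and 4, against 3. Haemoglobin genes numbered 1, 0 and 2, against 3, and ribosomal proteins 5, 0 and 14, against 8.

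**Figure D1:**
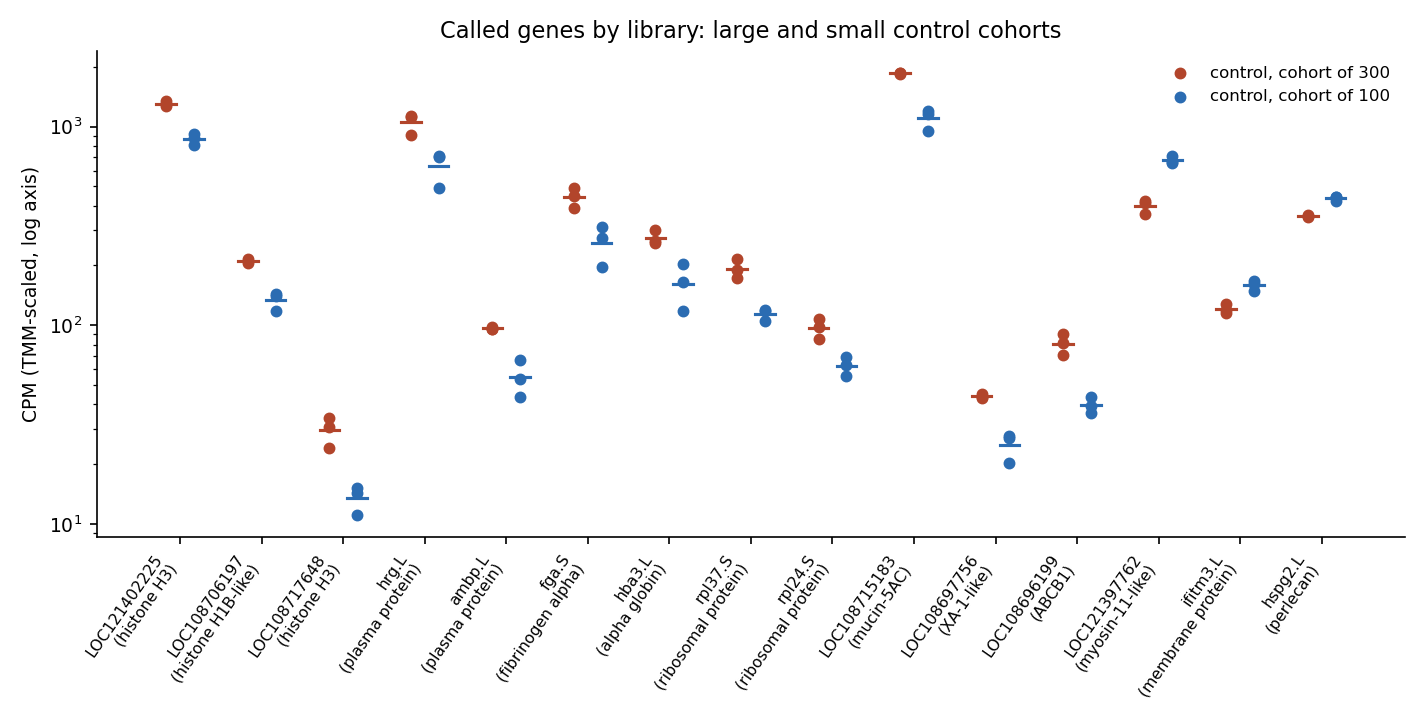
Level of 15 called genes in each control library, in CPM on a logarithmic axis. Points are libraries of cohorts of 300 (left, red) and of cohorts of 100 (right, blue) and bars are group means of 3; no group overlaps its partner, from 1863, 1833 and 1861 CPM against 955, 1202 and 1159.7 CPM for the mucin gene LOC108715183 down to the H3 gene LOC108717648.

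Histone genes made up the largest group of calls. The deposited annotation describes 137 tested genes as replication-type histones (H1A, H1B and H1C, H2A type 1, H2B 1.1 and 1.2, H3 and H4). Of these, 16 rose and 0 fell in large cohorts, 124 lay above 0, and the median change was 0.48. The list was drawn up from product names after the values had been seen. At an unadjusted p under 0.05, 62 were higher and 1 lower, against 5.54% and 3.87% of all genes. In 54 members (39.4%) the groups did not overlap with large cohorts higher, and in 0 with large cohorts lower. The shares over all genes tested were 8.45% and 7.6%.

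The most abundant of the called histone genes, the H3 gene LOC121402225, stood at 1342, 1264 and 1298 CPM in large and 914, 810.5 and 872 CPM in small control cohorts (0.59 ± 0.11, adjusted p = 0.0265). H3 is a core histone whose tail carries many regulatory marks. The H1B-like gene LOC108706197, one of the linker histones that bind DNA between nucleosomes, had 215, 212 and 205 CPM in large cohorts, against 140.3, 118 and 144 CPM in small cohorts (0.67 ± 0.08, adjusted p = 0.00369). It remained called without any one of the 12 libraries when surrogate variables were in the fit.

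Other linker histones followed. LOC121402241 (H1A-like) had 439, 476 and 414 CPM in large cohorts and 177, 222 and 303 CPM in small cohorts (1.07 ± 0.19, adjusted p = 0.0238). LOC108716538 (H1B) had 164, 164 and 151 CPM in large cohorts and 107, 84.0 and 125 CPM in small cohorts (0.64 ± 0.12, adjusted p = 0.0371). In both genes the lowest large library exceeded the highest small one. The remaining called linker histones were LOC121393615 and LOC121402255, which rose by 0.72 and 0.63. LOC121402241 and LOC121402255 were not called by limma without surrogate variables (adjusted p = 0.131 and 0.283). Neither was called by edgeR (adjusted p = 0.172 and 0.350) or DESeq2 (adjusted p = 0.158 and 0.572). DESeq2 did call LOC108716538 and LOC121393615.

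H4, which pairs with H3 in the nucleosome core, had 3 called genes. LOC121398090 stood at 278, 292 and 267 CPM in large and 193, 199 and 206 CPM in small cohorts (0.55 ± 0.09, adjusted p = 0.0174). LOC121399129 stood at 226, 227 and 256 CPM in large and 156, 157 and 153 CPM in small cohorts (0.58 ± 0.10, adjusted p = 0.0196). The spread within each group was small beside the gap between them. The least abundant, LOC121402266, had 41.4, 36.2 and 26.8 CPM in large and 18.3, 21.8 and 22.2 CPM in small cohorts (0.96 ± 0.15, adjusted p = 0.015). It was not called by limma without surrogate variables (adjusted p = 0.311), edgeR (adjusted p = 0.300) or DESeq2 (adjusted p = 0.103), while DESeq2 called LOC121398090 and LOC121399129. Among H2A and H2B genes, which form the outer part of the nucleosome, LOC108695576 and LOC108703788 (H2A type 1-like) rose by 0.88 and 0.61, and LOC108704303 and LOC121394152 (H2B 1.1-like) by 0.61 and 0.52. The H3 genes LOC108717648 and LOC108704296 rose by 1.00 and 0.76. The DNA damage variant gene h2ax.lS, which is outside the replication-type list, rose by 0.68 ± 0.11 (121, 97.5 and 104 CPM in large, 74.3, 76.1 and 61.0 CPM in small cohorts, adjusted p = 0.0209).

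One called H3 gene was near the detection limit. LOC121398066 had 2.43, 1.74 and 1.66 CPM in large cohorts and 0 counts in all small control libraries. Over each group that was 35.66 expected counts against 0, which is at least 14.1-fold higher if the small group is set at 3 counts. The gene passed the filter only through groups where it was high.

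All 5 histone classes were shifted together. Summed over members, H1 genes reached 2305, 2372 and 2231 CPM in large cohorts and 1547, 1398 and 1751 CPM in small cohorts. H2A genes reached 4103, 4025 and 4240.4 CPM in large cohorts and 2934, 2502 and 2972 CPM in small cohorts. H2B genes were closest, at 2866, 2806 and 2684 CPM in large cohorts and 2274, 2305 and 2519 CPM in small cohorts. In each of these classes the lowest large library lay above the highest small library. The same held for H3, at 2919, 2741 and 2813 CPM against 2180.2, 2022 and 2170 CPM, and for H4, at 2062, 2011 and 2046 CPM against 1415, 1557 and 1574 CPM, large cohorts given before small. The sum over all replication-type histones was 14075 ± 159 CPM in large and 10373 ± 601 CPM in small cohorts (SD, n = 3 each), a ratio of 1.36. Class medians of the log2 fold change were 0.63 for H1, 0.48 for H2A, 0.34 for H2B, 0.41 for H3 and 0.58 for H4.

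**Figure D2:**
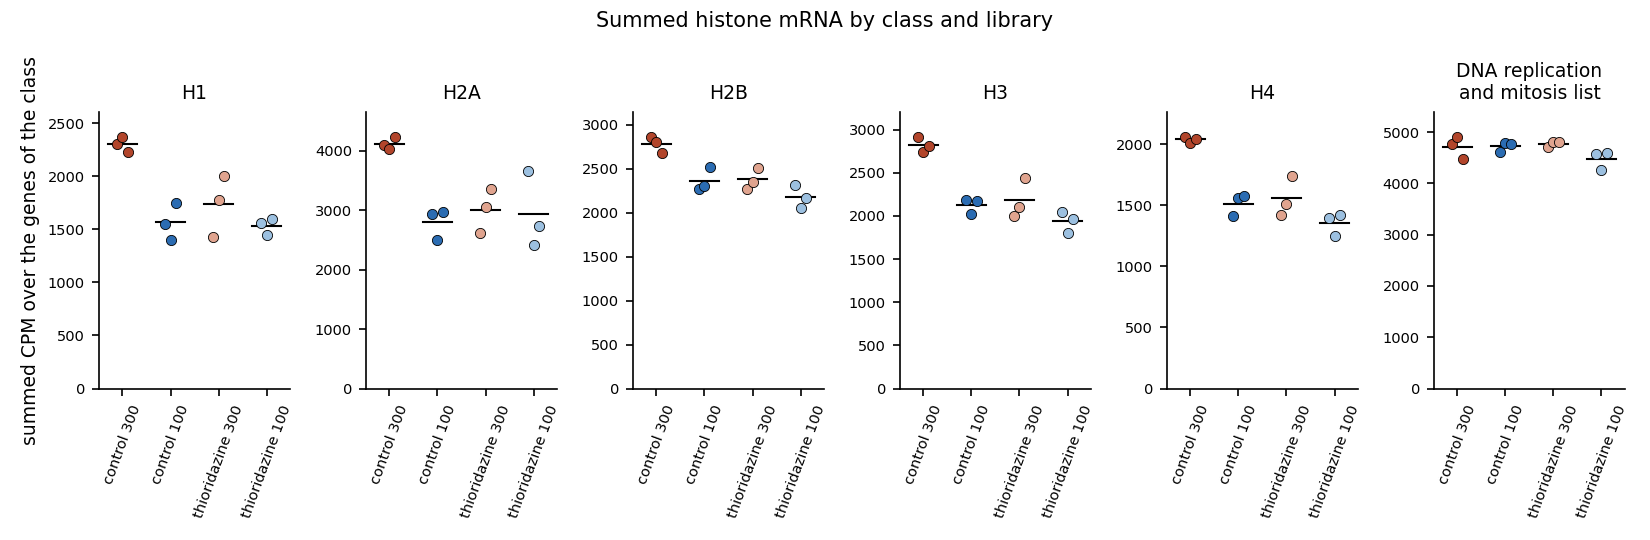
Summed CPM over the genes of each histone class and over a list of DNA replication and mitosis genes, by library; axes start at 0 and bars are means of 3 libraries. Control cohorts of 300 lie above control cohorts of 100 in all 5 histone panels, and above every thioridazine library, while for the replication list they overlap (4763, 4912 and 4476 CPM against 4615, 4794 and 4778 CPM).

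Near-identical histone copies share reads, and RSEM divides these between them. Of the 137 genes, 11 shared all 12 values with another member, which left 130 distinct sets of values, 117 of them above 0 with a median of 0.49. In the RefSeq gene order, 118 of the histone genes lay in 8 runs of at least 5 (neighbouring members no more than 10 genes apart). Every run had a median above 0, and 6 runs held a called gene. Copies in different runs may share reads, so the runs are not independent measurements. Among members averaging at least 10 CPM over the control libraries, 104 of 114 lay above 0.

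Genes of the cell cycle were measured at a median near 0. Of 112 tested genes for DNA replication and mitosis, 57 lay above 0, the median change was 0.00 and 0 were called by limma, edgeR or DESeq2, with 2 higher and 3 lower at an unadjusted p under 0.05. The histone genes matched by symbol alone, mostly replacement variants that are made outside S phase, had a median of 0.10 over 26 members. Of these, 19 lay above 0 and 1 was called (h2ax.lS), with 4 higher and 0 lower at an unadjusted p under 0.05. The groups did not overlap in 6 with large cohorts higher (23.1%) and in 0 with large cohorts lower, against 8.45% and 7.6% of all genes tested. The linker gene h1-6.L was measured at 0.83 ± 0.19 (adjusted p = 0.0856).

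Plasma proteins of the liver were the second group. Of 50 tested members, 48 lay above 0, 6 rose and 0 fell, with a median of 0.42. At an unadjusted p under 0.05, 30 were higher and 0 lower, against 5.54% and 3.87% of all genes. This list was chosen with earlier results of these data known, and its direction is not independent evidence. The most abundant called member was hrg.L, histidine-rich glycoprotein, a plasma protein that binds heparin and metals, with 1122, 911 and 1133 CPM in large cohorts and 709.8, 489 and 703 CPM in small cohorts (0.73 ± 0.12, adjusted p = 0.0174). ambp.L, which encodes the precursor of alpha-1-microglobulin and bikunin, had 95.9, 96.3 and 97.7 CPM in large cohorts and 53.5, 43.5 and 67.0 CPM in small cohorts (0.84 ± 0.13, adjusted p = 0.015). In both genes small replicate 2 was the lowest library.

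Lipid and vitamin carriers belonged to the same set. apoc1.L, an apolipoprotein of circulating lipid particles, had 343, 290.3 and 345 CPM in large cohorts and 212, 227 and 222 CPM in small cohorts (0.58 ± 0.09, adjusted p = 0.0174). apoc2.L, the cofactor of lipoprotein lipase, had 131, 109 and 141 CPM in large cohorts and 92.0, 59.1 and 78.5 CPM in small cohorts (0.69 ± 0.11, adjusted p = 0.0174). rbp4.L, the plasma carrier of retinol, had 207, 169 and 248 CPM in large cohorts and 141, 101 and 124 CPM in small cohorts (0.66 ± 0.11, adjusted p = 0.022). None of these groups overlapped. kng1.S (kininogen, the source of bradykinin) was the least abundant, with 15.6, 14.0 and 13.5 CPM in large cohorts and 8.35, 6.98 and 9.02 CPM in small cohorts (0.86 ± 0.17, adjusted p = 0.0419). The major apolipoprotein apoa1.L was measured at 0.51 ± 0.10 and complement c3.L at 0.50 ± 0.11 (adjusted p = 0.0547 and 0.0649), short of the threshold.

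Fibrinogen is the plasma protein that polymerises into the clot, and all 3 of its chains were called on the S subgenome. fga.S (alpha chain) had 449, 388 and 491 CPM in large cohorts and 311, 196 and 276 CPM in small cohorts (0.73 ± 0.12, adjusted p = 0.0174). fgb.S (beta chain) had 193, 183 and 199.8 CPM in large cohorts and 136, 80.1 and 121 CPM in small cohorts (0.76 ± 0.13, adjusted p = 0.0196). fgg.S (gamma chain) had 181, 163 and 212 CPM in large cohorts and 146, 113 and 126 CPM in small cohorts (0.46 ± 0.08, adjusted p = 0.0265). The L copies fga.L, fgb.L and fgg.L were measured at 0.48 ± 0.31, 0.67 ± 0.14 and 0.34 ± 0.25 and were not called. Of 25 coagulation genes in all, 21 lay above 0, 3 rose and 0 fell, with a median of 0.43.

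Further liver-linked products stood outside these lists. LOC108696295, annotated as liver fatty acid-binding protein, had 24.6, 18.5 and 20.8 CPM in large cohorts and 10.6, 8.39 and 12.5 CPM in small cohorts (1.09 ± 0.17, adjusted p = 0.015). LOC108717227, a cytochrome P450 (2K4), had 59.4, 54.1 and 48.2 CPM in large cohorts and 29.0, 28.6 and 29.9 CPM in small cohorts (0.99 ± 0.15, adjusted p = 0.015). selenop1.L, the plasma selenium carrier made mainly by the liver, had 731, 628 and 734 CPM in large cohorts and 462, 448 and 525 CPM in small cohorts (0.53 ± 0.09, adjusted p = 0.025). In each the 2 groups stood clear of each other. Intracellular liver enzymes and regulators shifted less, with 37 of 48 above 0, a median of 0.12 and 0 called by limma, edgeR or DESeq2 (8 higher and 0 lower at an unadjusted p under 0.05). Pancreas and gut genes had 14 of 17 above 0, a median of 0.29 and 0 called by any of these tools (5 higher and 0 lower at an unadjusted p under 0.05). The smallest p in that list was that of gata5.L, an endoderm and heart transcription factor, at 0.61 ± 0.18 (adjusted p = 0.205).

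In whole embryos a change in the number of cells of a type and a change in RNA per cell cannot be told apart. Summed over the 50 plasma proteins, the large libraries held 13093, 11231 and 13744 CPM and the small libraries 10925, 7465 and 9617 CPM. The groups did not overlap, but large replicate 2 (11231 CPM) and small replicate 1 (10925 CPM) lay close. The median of the list ranged from 0.23 to 0.59 when control libraries were left out.

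Haemoglobin genes, which fill the larval red cells, were higher in large cohorts. Of 16 subunit genes identified by product (a list also drawn up after the values were seen), 15 lay above 0, 3 rose and 0 fell, with a median of 0.76. The called genes all encode alpha chains. hba3.L had 302, 265 and 261 CPM in large cohorts and 117, 202 and 166 CPM in small cohorts (0.84 ± 0.13, adjusted p = 0.0162). LOC108703099 had 68.3, 65.7 and 57.9 CPM in large cohorts and 16.1, 39.8 and 39.3 CPM in small cohorts (1.14 ± 0.22, adjusted p = 0.0416). LOC108703098 had 70.02, 66.8 and 53.1 CPM in large cohorts and 20.4, 47.5 and 42.6 CPM in small cohorts (0.94 ± 0.15, adjusted p = 0.0174). Small replicate 1 was the lowest library in all 3 genes. LOC108703099 and LOC108703098 were not called by limma without surrogate variables (adjusted p = 0.137 and 0.202). Neither was called by edgeR (adjusted p = 0.209 and 0.275) or DESeq2 (adjusted p = 0.290 and 0.430). hba3.L was called by limma without surrogate variables and by DESeq2, but not by edgeR (adjusted p = 0.0541). Summed over the 16 genes, haemoglobin reached 1169.8, 1157 and 992 CPM in large cohorts and 469, 914 and 710.2 CPM in small cohorts, and without control libraries in turn the list median ranged from 0.47 to 1.01. The epsilon gene hbe1.L and the alpha gene hba2.L were measured at 0.89 ± 0.19 and 0.97 ± 0.22 (adjusted p = 0.0602 and 0.0745). Of the wider list of 35 globin and erythroid genes, 32 lay above 0 with a median of 0.21. The transferrin receptor tfrc.L, which brings iron into the cell, went the other way at -0.26 ± 0.09 (adjusted p = 0.301).

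Ribosomal protein genes rose in part. Of 137 cytosolic members, 109 lay above 0, 8 rose and 0 fell, and the median was 0.12. The groups did not overlap in 60 members with large cohorts higher (43.8%) and in 1 with large cohorts lower (0.73%). Over all genes tested these shares were 8.45% and 7.6%. rpl37.S had 172, 216 and 189.8 CPM in large cohorts and 118, 105 and 119 CPM in small cohorts (0.75 ± 0.11, adjusted p = 0.015). rpl24.S had 85.6, 98.6 and 107 CPM in large cohorts and 69.5, 62.9 and 55.5 CPM in small cohorts (0.58 ± 0.09, adjusted p = 0.015). rpl36.L had 46.2, 64.7 and 56.2 CPM in large cohorts and 28.1, 27.2 and 38.8 CPM in small cohorts (0.92 ± 0.17, adjusted p = 0.0299). In the large-subunit genes rpl36.L and rpl37.S, large replicate 2 was the highest library. Further called members were rpl29.S, rpl38.L, rpl38.S and rps28p9.L, which rose by 0.58 to 0.61. LOC108700022, annotated as ribosomal protein L35 and outside the symbol list, rose by 0.62 ± 0.12 (adjusted p = 0.0475). When single control libraries were left out the list median lay between 0.10 and 0.16.

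Genes that build ribosomes and the mitochondrial respiratory chain leaned the same way with few calls. Among 107 ribosome biogenesis factors, 78 lay above 0 (median 0.07) and 2 rose. rrp7a.L, a processing factor of ribosomal RNA, had 12.1, 12.4 and 12.8 CPM in large cohorts and 8.48, 7.75 and 6.61 CPM in small cohorts (0.78 ± 0.15, adjusted p = 0.0314). gar1.L, a core protein of the particles that place pseudouridine in RNA, had 41.9, 46.9 and 41.9 CPM in large cohorts and 28.4, 30.4 and 33.8 CPM in small cohorts (0.54 ± 0.10, adjusted p = 0.0299). Both pairs of groups were clear of each other. Fibrillarin (fbl.S), which methylates ribosomal RNA, was measured at 0.59 ± 0.13 (adjusted p = 0.0643). Of 123 genes of the respiratory chain and ATP synthase, 91 lay above 0 (median 0.10), and atp5mg.L, a membrane subunit of ATP synthase, rose by 0.53 ± 0.10 (adjusted p = 0.0407). Of 93 mitochondrial ribosomal proteins, 68 lay above 0 (median 0.17) and 0 were called by limma, edgeR or DESeq2, with 17 higher and 2 lower at an unadjusted p under 0.05.

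Ribosomal RNA was also among the calls. Of 10 tested genes described as ribosomal RNA, 8 lay above 0 and 2 rose. The 28S gene LOC121401722 had 1012, 1956 and 1260.4 CPM in large cohorts and 409.6, 605 and 462 CPM in small cohorts (1.67 ± 0.27, adjusted p = 0.0162). The 18S gene LOC121401715 was also called (2.96 ± 0.55, adjusted p = 0.0311), although its groups overlapped at 146, 118 and 0.901 CPM in large and 6.80, 35.1 and 54.99 CPM in small cohorts. Without surrogate variables LOC121401715 was measured at 0.31 ± 1.68 (limma adjusted p = 0.98), and edgeR did not call it (adjusted p = 0.794). Its call was lost whichever of the 12 libraries was left out. Ribosomal RNA was depleted before sequencing and reads were then screened against its sequence, so its level records what these steps left. The part of ribosomal RNA carry-over in the other changes was not tested.

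**Figure D3:**
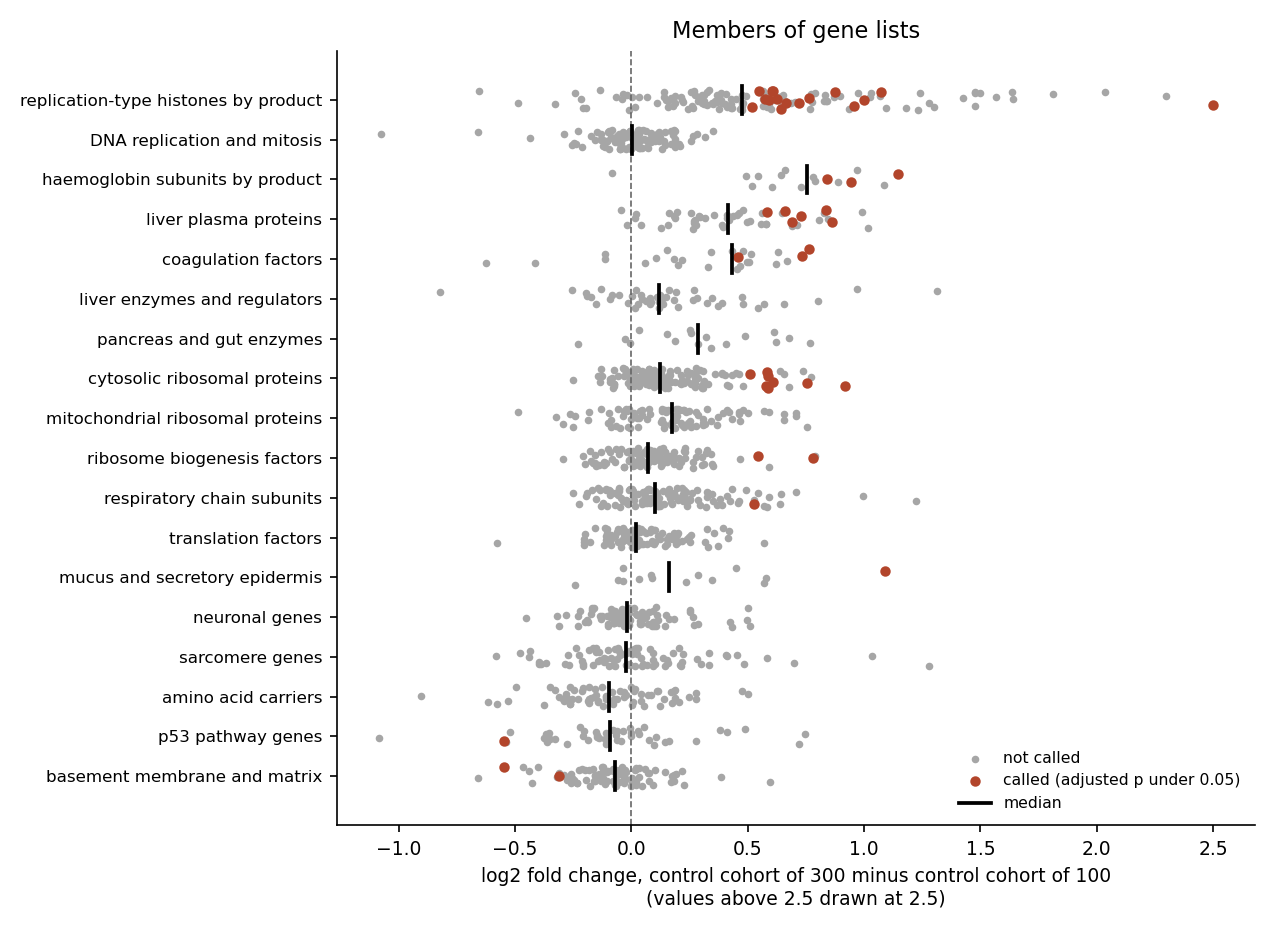
Log2 fold change, control cohorts of 300 minus control cohorts of 100, of each tested member of 18 gene lists; red points are called genes, black bars list medians, and the dashed line is 0. Replication-type histones (median 0.48), haemoglobin subunits (0.76), plasma proteins (0.42) and coagulation factors (0.43) sit to the right of 0, and the DNA replication and mitosis list (0.00) sits on it.

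Single genes of mucus and anterior ectoderm were among those that rose, while the wider mucin and cement gland lists were mixed. Of 24 genes described as mucins, 13 lay above 0 (median 0.03), 1 rose and 0 fell, with 9 higher and 4 lower at an unadjusted p under 0.05. Of 24 cement gland and anterior genes, 11 lay above 0 (median -0.01) and 0 were called by limma, edgeR or DESeq2, with 1 higher and 0 lower at an unadjusted p under 0.05. The smallest p of all genes belonged to LOC108715183, annotated as mucin-5AC, a gel-forming mucin, with 1863, 1833 and 1861 CPM in large cohorts and 955, 1202 and 1159.7 CPM in small cohorts (0.67 ± 0.07, adjusted p = 0.00203). The 3 large libraries were nearly equal. Without surrogate variables LOC108715183 was measured at 0.75 ± 0.18 (limma adjusted p = 0.137), and its adjusted p was 0.209 with edgeR and 0.18 with DESeq2. dan4l.L, a gene of the mucus and secretory epidermis list whose product is named for a yeast cell wall protein, had 41.1, 29.7 and 33.8 CPM in large cohorts and 14.2, 15.7 and 17.3 CPM in small cohorts (1.09 ± 0.20, adjusted p = 0.0311). xa-1.L, an early marker of anterior ectoderm in Xenopus, had 122, 127 and 140.3 CPM in large cohorts and 103, 94.1 and 88.0 CPM in small cohorts (0.39 ± 0.08, adjusted p = 0.0482). A second gene annotated as XA-1-like, LOC108697756, had 43.8, 43.0 and 44.9 CPM in large cohorts and 27.0, 20.2 and 27.7 CPM in small cohorts (0.89 ± 0.14, adjusted p = 0.015). The groups were separate in all 4 genes. The most abundant mucus gene, muc2l.L, had 2883, 2739 and 3136 CPM in large cohorts and 1929, 1931 and 2214 CPM in small cohorts. At 0.45 ± 0.09 it fell just short of the threshold in the main fit (adjusted p = 0.0547). Limma without surrogate variables gave muc2l.L 0.53 ± 0.19 (adjusted p = 0.395), and its adjusted p was 0.452 with edgeR and 0.732 with DESeq2. foxa1.S, a transcription factor of the secretory cells of tadpole skin, was measured at 0.57 ± 0.13 (adjusted p = 0.0688). The same gene is a member of the list of liver enzymes and regulators. Over the 14 tested genes of the mucus and secretory epidermis list, 10 lay above 0 (median 0.16), 1 rose and 0 fell. At an unadjusted p under 0.05, 6 of them were higher and 0 lower.

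Other rises had a variety of products. LOC108696199, annotated as the drug efflux pump ABCB1, had 90.1, 71.1 and 81.6 CPM in large cohorts and 36.3, 43.8 and 39.4 CPM in small cohorts (1.09 ± 0.15, adjusted p = 0.0124). rbm8a.L and rbm8a.S, the copies of a core protein of the exon junction complex, rose by 0.72 ± 0.14 and 0.63 ± 0.10. The mRNA-binding protein gene ybx1.S had 1003, 1179 and 1180.4 CPM in large cohorts and 887, 783 and 859 CPM in small cohorts (0.43 ± 0.07, adjusted p = 0.0229). Its homeolog ybx1.L was measured at 0.51 ± 0.10 (adjusted p = 0.0518). Both copies of this gene leaned the same way. LOC121394602 (posterior protein-like) rose by 1.61 ± 0.28 (adjusted p = 0.0217). LOC121396669, a small Cajal body RNA that guides modification of splicing RNAs, rose by 1.30 ± 0.25 (adjusted p = 0.0425). It had 35.9, 44.8 and 22.4 CPM in large cohorts and 12.7, 21.6 and 14.6 CPM in small cohorts. Neither gene was called by limma without surrogate variables, edgeR or DESeq2. Their adjusted p were 0.233, 0.240 and 0.281 for LOC121394602, and 0.414, 0.392 and 0.686 for LOC121396669. Low genes included LOC121396229, related to transcription factor II-I, with 31.47 expected counts over the large group and 1.42 over the small group. It passed the filter only through large control and small thioridazine libraries, where it was high. Without surrogate variables it was not called (limma adjusted p = 0.258).

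Genes that fell were few and of mixed function. LOC121397762, annotated as myosin-11-like, a name used for a smooth muscle myosin, had 363, 422 and 414 CPM in large cohorts and 667, 658 and 712 CPM in small cohorts (-0.72 ± 0.13, adjusted p = 0.0299). LOC108697889 (IgGFc-binding protein, a mucus component in mammals) had 20.3, 19.9 and 20.3 CPM in large cohorts and 29.0, 35.3 and 35.0 CPM in small cohorts (-0.73 ± 0.11, adjusted p = 0.015). ccng1.L, cyclin G1 and a p53 target, had 194, 182 and 191 CPM in large cohorts and 317, 229.9 and 215 CPM in small cohorts (-0.55 ± 0.10, adjusted p = 0.0309). In ccng1.L small replicate 1 stood well above the other control libraries. It was not called without surrogate variables (limma adjusted p = 0.487), by edgeR (adjusted p = 0.435) or by DESeq2 (adjusted p = 0.732). The homeolog ccng1.S was measured at -0.35 ± 0.12 (limma adjusted p = 0.311). Of 46 genes of the p53 pathway 15 lay above 0 (median -0.09), with ccng1.L the only one called in the main fit. At an unadjusted p under 0.05, 4 of the 46 were higher and 8 lower.

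The extracellular matrix supplied a further pair. hspg2.L encodes perlecan, the heparan sulfate proteoglycan of basement membranes, and had 356, 349.8 and 358 CPM in large cohorts and 439.6, 445 and 421 CPM in small cohorts (-0.31 ± 0.06, adjusted p = 0.0329). lox.S, the gene of the collagen and elastin crosslinking enzyme lysyl oxidase, had 23.8, 22.3 and 26.8 CPM in large cohorts and 31.6, 33.9 and 34.1 CPM in small cohorts (-0.55 ± 0.11, adjusted p = 0.045). DESeq2 also called hspg2.L, but limma without surrogate variables (adjusted p = 0.0504) and edgeR (adjusted p = 0.0993) did not. None of these called lox.S (adjusted p = 0.322 for limma without surrogate variables, 0.311 for edgeR and 0.349 for DESeq2). Its homeolog lox.L was measured at -0.20 ± 0.24. Of 94 basement membrane and matrix genes, 28 lay above 0 (median -0.07), 0 rose and 2 fell. frem3.L and fbn2.L, which encode a basement membrane protein and a microfibril protein, were measured at -0.43 ± 0.09 and -0.47 ± 0.10 (adjusted p = 0.0602 and 0.0649).

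The other falls with separate groups were ifitm3.L (a membrane protein that restricts virus entry) at -0.43 ± 0.07, lrrn1.L (a neuronal leucine-rich repeat protein) at -0.45 ± 0.08, selenof.L (a selenium-containing protein of the secretory pathway) at -0.53 ± 0.08 and LOC108700399 (a chaperonin gamma subunit-like gene) at -0.61 ± 0.10. Of these, selenof.L was not called by limma without surrogate variables (adjusted p = 0.416), edgeR (adjusted p = 0.401) or DESeq2 (adjusted p = 0.381). Its homeolog selenof.S was measured at -0.02 ± 0.07. ifitm3.L, lrrn1.L and LOC108700399 were called by DESeq2, but not by limma without surrogate variables or edgeR. sppl2b.L and LOC121400438 were called lower although their groups overlapped, with at least 1 library of the large group at 0 counts. Among members of the amino acid carrier families, 25 of 72 lay above 0 (median -0.10) and 0 were called by limma, with 2 higher and 10 lower at an unadjusted p under 0.05; edgeR called 0 and DESeq2 1. The carrier of large neutral amino acids slc7a5.L was measured at -0.38 ± 0.09 (adjusted p = 0.0876).

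Homeologs mostly shared their direction. Of the called genes, 26 had a tested partner on the other subgenome, 24 of the partners had the same sign and 4 were called, namely both copies of rbm8a and of rpl38. Among all 12956 tested genes with a tested partner, the partner shared the sign in 61.1%. The partners of the 21 genes called higher had a median change of 0.41, and 20 lay above 0. The exceptions were fam118b.L (-0.24 ± 0.13) and, among the falls, sppl2b.S. Reads that match both copies are divided between them by estimation, so partners are not fully independent measurements.

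Genes called higher were short. Their median span from first to last exon in RefSeq was 4796 bp, against 21562 bp for all genes tested and 13860 bp for the genes called lower, and 47 of the 64 lay in the shortest 2 of 10 equal bins of span. Over all genes, the median change was 0.07 in the shortest bin (88 to 4782 bp) and -0.04 in the longest. In the shortest bin the large libraries lay 0.02 to 0.07 above the mean of the 6 libraries and the small libraries 0.03 below it. Centring each library within bins of span left 48 calls, 46 of them shared, with 37 higher and 11 lower, with 7 histone genes called and the histone median at 0.39. The part of RNA quality or library preparation in this trend was not tested.

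**Figure D4:**
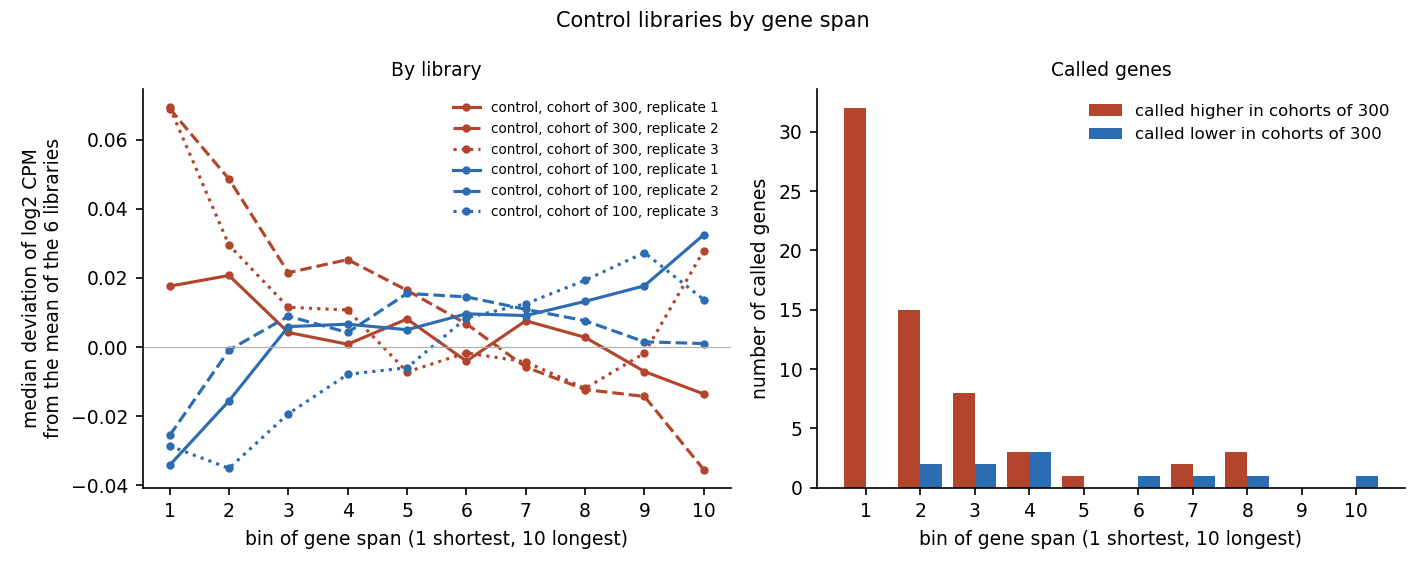
Left, median deviation of log2 CPM from the mean of the 6 control libraries in 10 bins of gene span, by library; right, number of genes called higher (red) and lower (blue) in cohorts of 300. The 3 large libraries lie above 0 and the 3 small libraries below 0 in the shortest bin, which also holds 32 of the 64 genes called higher.

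Finally, the control comparison was set against the same comparison under thioridazine. The difference between the cohort effects (control minus thioridazine) was called for 19 genes (0.0744%), 17 of them positive (0.0665%) and 2 negative (0.00783%). Of the 75 genes called between control cohorts, 51 had the same sign under thioridazine. The share of all genes tested with the same sign was not computed. Of the 75, 2 were also called between thioridazine cohorts, where 24 of all 25553 genes tested were called. These were xa-1.L, in the opposite direction, and sppl2b.L, whose groups overlapped in both comparisons. Of the 75, 6 were among the 19 called for the difference. Of the other 13, 9 were under 1 CPM in every large thioridazine library and were not called between control cohorts. Among them were hatching enzymes and secreted proteases, a list with 6 of 21 members called for the difference and 0 called between control cohorts by limma, edgeR or DESeq2 (0 higher and 0 lower at an unadjusted p under 0.05). LOC108699319, annotated as like the hatching protein UVS.2, had 16.6, 22.1 and 18.0 CPM in large and 12.9, 10.8 and 19.5 CPM in small control cohorts, and 0 counts in large thioridazine cohorts against 14.6, 22.8 and 10.8 CPM in small thioridazine cohorts. The 64 genes called higher were chosen by their control values, at a median of 0.70, and under thioridazine their median was 0.10. The mucin gene LOC108715183 had 608, 403 and 652 CPM in large and 345, 601 and 657 CPM in small thioridazine cohorts. These groups overlapped, and the fall fitted there with surrogate variables was not called (-0.29 ± 0.08, limma adjusted p = 0.303). Its fitted effects differed by 0.96 ± 0.11 (limma adjusted p = 0.0026). xa-1.L was called in the opposite direction under thioridazine, at 56.8, 47.7 and 54.4 CPM in large and 85.1, 80.0 and 83.0 CPM in small thioridazine cohorts (-0.62 ± 0.09, adjusted p = 0.0109). These genes were thus at their highest in large control cohorts.

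Calls for the difference were uneven among the groups that led the control comparison. Of the 137 replication-type histones, 3 were called for the difference, against 19 of all 25553 genes tested (0.0744%). Among the 3 was LOC121398066, which was near the detection limit. The histone list median was 0.48 in controls and 0.12 under thioridazine. None of the plasma protein, coagulation, haemoglobin or cytosolic ribosomal protein genes was called for it by limma, which does not show that the effects were alike. Plasma proteins had medians of 0.42 in controls and 0.34 under thioridazine, and haemoglobin 0.76 and 0.04. The histone and haemoglobin lists were drawn up after the values were seen, and the plasma protein list with earlier results known. A smaller median under thioridazine is therefore no independent measure of how far the effects differ. rbp4.L was similar in both, at 0.66 ± 0.11 in controls and 0.57 ± 0.13 under thioridazine (difference 0.09 ± 0.17, adjusted p = 0.94).

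**Figure D5:**
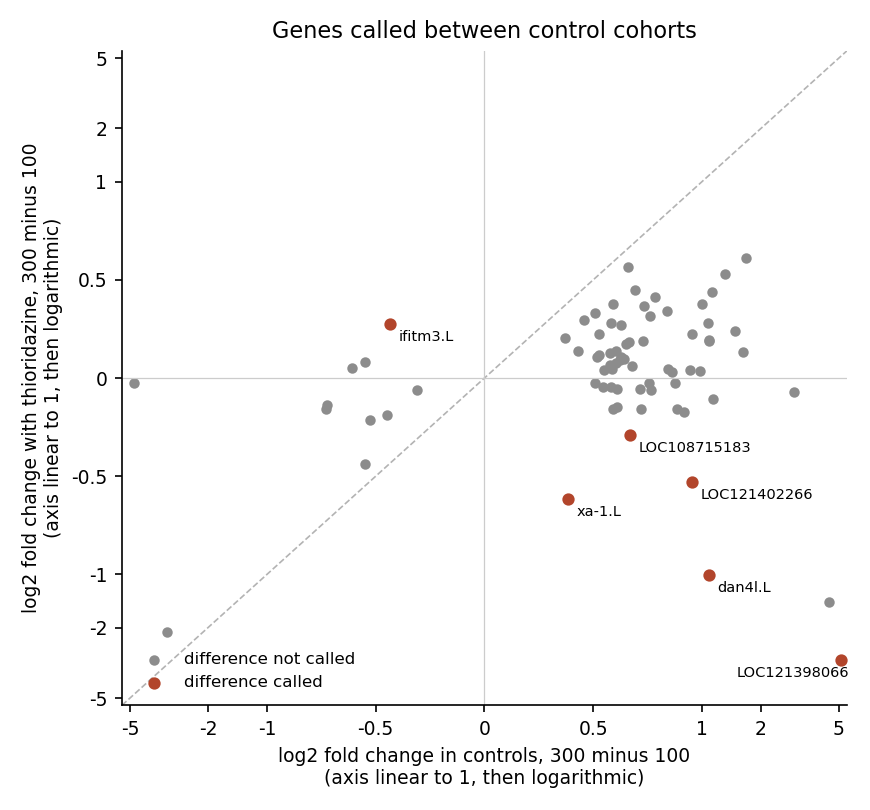
Log2 fold change between cohorts of 300 and 100 in controls (horizontal) and under thioridazine (vertical) for the 75 genes called between control cohorts; both axes are linear to 1 and logarithmic beyond. The dashed line marks equal effects; 51 of the 75 points have the same sign on both axes, and 6 genes whose effects differed at an adjusted p under 0.05 are named.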

How the data were processed

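Stranded total RNA libraries were prepared by the authors with Ribo-Zero depletion and sequenced as single-end reads. Reads were trimmed with fastp, screened against ribosomal RNA with Bowtie2, aligned with STAR in 2 passes and quantified with RSEM. The sources used here name neither tool versions nor the build of the counts. The values deposited for 42638 genes are expected counts, estimated by RSEM and not scaled to depth. A second deposited table, of 26050 genes in log2 CPM, could be recomputed from the counts within 4.97e-14. Product names came from that table. RefSeq (Xenopus_laevis_v10.1) served only for gene span and order.

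Genes above 1.8 CPM in at least 3 of 12 libraries (25553) were TMM-scaled with edgeR 4.0.16 and fitted with voom weights in limma 3.58.1 under R 4.3.3. The fit held the 4 groups and 2 surrogate variables from sva 3.50.0. The batch named in the study's methods is not in the labels and was not modelled. The p-values of limma were adjusted by Benjamini-Hochberg across the tested genes, two-sided. A count of 0 allows up to 3 counts, or 0.399 to 0.620 CPM, for counting error only. Library pairs were checked for duplicates (chi-square per degree of freedom 2.38 to 3.93). Labels and methods differ on where exposure ended, which does not touch the controls.

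The members, the 47 symbol lists and the alternatives were chosen with earlier results of these data known, and the 9 product lists after their values were seen. Kinases and other genes matched only by the start of their symbol were taken out of the ribosomal protein and erythroid lists after the values were seen. Named genes are called genes, up to 3 further members of a list with the smallest p, homeologs of named genes, or genes with the smallest p for the difference between cohort effects; placeholder genes only with a product. Alternatives included DESeq2 1.42.0 and edgeR on counts rounded to whole numbers, other filters and scalings, and each library left out. Without large replicate 3, surrogate variables could not be estimated again and were kept from the 12 libraries. Leaving out a control library without surrogate variables was added after the data were seen. A called gene is not reported here.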

Additional observations from a re-analysis of the deposited data

Results flagged for a closer look

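The fitted effect of cohort size differed between control and thioridazine embryos for 6 genes named above and 1 further gene, by the test of the difference itself (limma with 2 surrogate variables, n = 3 pooled libraries per group). Named genes with a whole group at 0 counts are given last. Differences are log2 fold change in controls minus log2 fold change under thioridazine. They were 0.96 ± 0.11 for the mucin gene LOC108715183 and 1.00 ± 0.12 for xa-1.L (adjusted p = 0.0026 each). They were 1.00 ± 0.14 for muc2l.L (adjusted p = 0.0108), 2.098 ± 0.31 for dan4l.L (adjusted p = 0.0154), -0.71 ± 0.11 for ifitm3.L (adjusted p = 0.0187) and 1.49 ± 0.23 for the H4 gene LOC121402266 (adjusted p = 0.0202). In LOC108715183, muc2l.L, dan4l.L and LOC121402266 the thioridazine CPM of large and small cohorts overlapped. The further gene, the H2A type 1-like LOC108703789, was picked by this same difference and had 8.27, 13.2 and 14.0 CPM in large and 7.41, 2.35 and 1.12 CPM in small control cohorts, and 3.03, 4.90 and 3.59 CPM in large and 15.9, 13.6 and 10.2 CPM in small thioridazine cohorts (difference 3.00 ± 0.51, adjusted p = 0.0398). The H3 gene LOC121398066 was also called, with a fitted difference of 8.18, but it had 0 counts in 5 of the 12 libraries, among them all small control libraries. That fitted value depends on the prior count and is no measure of how far the effects differ. The same limit holds for the UVS.2-like gene LOC108699319, which was called for the difference (adjusted p = 0.0108) with 0 counts in every large thioridazine library.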

How the results depend on the processing

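Calls depended on the model and on single libraries. Against 75 calls (64 higher, 11 lower) and 19 for the difference, limma without surrogate variables gave 32 (30 higher, 2 lower) and 5 for the difference, with 1 surrogate variable 7 lower, and with 3 surrogate variables 3 lower and 12 for the difference. edgeR without surrogate variables gave 7 (7 higher, 0 lower), DESeq2 115 (100 higher) and 55 for the difference, genes with at least 1 count 40 (32 higher), sample quality weights 128 (112 higher), the log2 CPM values as deposited 18 (18 higher, 0 lower), the 6 control libraries alone 137 (117 higher, 20 lower), and centring in bins of span 48 (37 higher). Same-numbered libraries did not pair (correlations of deviations -0.11, 0.05 and -0.05). A replicate block gave 84 calls (61 shared) with surrogate variables, and 12 (12 higher, 0 lower) with 9 for the difference without them.

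With surrogate variables, leaving out a thioridazine library gave 55, 93 and 142 calls for large replicates 1, 2 and 3, and 62, 190 and 134 for small replicates 1, 2 and 3. Without surrogate variables, an alternative added after the data were seen, leaving out large control replicates 1, 2 and 3 gave 0, 0 and 1 calls, and small control replicates 1, 2 and 3 gave 6, 2 and 3. Over all of these, counts ranged from 0 to 190 (higher 0 to 159, lower 0 to 31, difference 1 to 132). Of the called genes, 74 of 75 kept their direction under all 33 alternatives, 0 kept the call under all of them, and 4 kept it without each of the 12 libraries. The exception in direction was the 18S gene. The log2 fold change of LOC121401715 was -1.27 and -0.425 without large control replicates 1 and 2, and -0.61 without small control replicate 1, each without surrogate variables. The causes were not tested.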
